A study of Mus musculus with 8 samples.

Results

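The retinoid binding and metabolism genes Crabp1, Crabp2, Cyp26b1, Aldh1a1, Aldh1a2, Aldh1a3 and Rarres2 were followed through all cells of the series. They were chosen by symbol, and each symbol matched 1 row, so that 7 of the 31053 genes in the files are described. The series holds 8 droplet-based single-cell RNA-seq libraries (10x Genomics) of dorsal skin from female BALB/c mice aged 14 to 16 weeks, 4 of skin injected subcutaneously with PBMCsec and 4 injected with a vehicle. PBMCsec is the cell-free conditioned medium of irradiated human peripheral blood mononuclear cells. The study's methods describe excision wounds left to scar before injection, controls of NaCl or culture medium and an early and a late end point. The labels name injected dorsal skin but no wound or scar, give subcutaneous where those methods give intradermal injection, and stand under a title about mast cells and basophils, so whether these libraries are of scars is not settled here. They name neither the control solution nor the end point, so treatment is the only grouping used. No label names the animal behind a library, and p-values measure only the spread between libraries.

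Retinol is taken up by cells on binding proteins, oxidised by retinol dehydrogenases to retinaldehyde and then, irreversibly, by the retinaldehyde dehydrogenases Aldh1a1, Aldh1a2 and Aldh1a3 to retinoic acid. In the cytosol Crabp1 and Crabp2 bind retinoic acid, and Crabp2 is known to hand it to nuclear receptors. Cyp26b1, a cytochrome P450, degrades it. Rarres2 encodes chemerin, a secreted chemoattractant named for its response to a retinoid. It neither binds nor metabolises retinoids, so the group's name holds for the other 6 genes. In skin, retinoic acid is known for its effects on keratinocyte differentiation, the hair follicle and fibroblasts.

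Of 26231 barcodes, 6150 passed the study's filter, which asks for 500 to 4000 genes, allows no more than 20000 UMIs and caps the mitochondrial share at 5%. Per library, 10.2% to 32.9% passed. A UMI is 1 captured RNA molecule. Kept cells per library numbered 151 to 1659, with median depths of 6156 to 9521 UMIs, and 78 barcode sequences occurred in more than 1 library (4 among kept cells). Vehicle replicates 1 and 2 (151 and 208 cells) and PBMCsec replicate 2 (313 cells) were small, and differences by treatment are given with their range when 1 library is left out. Cells fell into 36 clusters, of which 8 were fibroblasts (FBs, 1554 cells) and 12 epithelial (2840 cells). The 7 genes and the other genes of the pathway took no part in the choice of variable features. Levels are given in CPM, the UMIs of a gene scaled to all UMIs of the same cells. FB markers were high in FBs of all libraries, with a summed level of 39307 to 46745 CPM after PBMCsec and 35729 to 46942 CPM after vehicle. All 7 FB markers were also found in epithelial cells, at 89.7 to 250.1 and 32.5 to 314 CPM.

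On GRCm38 (GENCODE M21), Crabp1 lies on chromosome 9 (54764748 to 54773110, plus strand), Crabp2 on chromosome 3 (87948666 to 87953376, plus strand) and Cyp26b1 on chromosome 6 (84571414 to 84593908, minus strand). Aldh1a1 lies on chromosome 19 (20492715 to 20643465, plus strand), Aldh1a2 on chromosome 9 (71215789 to 71296243, plus strand), Aldh1a3 on chromosome 7 (66390890 to 66427517, minus strand) and Rarres2 on chromosome 6 (48569696 to 48572789, minus strand). None of the 7 overlaps another gene on its own strand. Aldh1a1 has the near-identical neighbour Aldh1a7, which reached no more than 4.64 CPM in any cluster, and reads of the pair may not be told apart fully.

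Crabp1 and Cyp26b1 were high in overlapping sets of FB clusters, as described below, and the RefSeq (GRCm38) sequence before the start of each is shown for that reason. The windows are chr9:54764498-54764747, plus strand, and chr6:84593909-84594060, minus strand, both ending 1 base before the annotated gene and written 5′ to 3′. Capitals mark TATAAA.
Crabp1: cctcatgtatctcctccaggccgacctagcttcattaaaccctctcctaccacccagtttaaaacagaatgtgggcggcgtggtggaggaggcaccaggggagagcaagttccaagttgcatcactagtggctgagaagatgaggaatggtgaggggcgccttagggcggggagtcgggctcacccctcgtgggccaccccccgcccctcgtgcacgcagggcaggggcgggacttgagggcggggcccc
Cyp26b1: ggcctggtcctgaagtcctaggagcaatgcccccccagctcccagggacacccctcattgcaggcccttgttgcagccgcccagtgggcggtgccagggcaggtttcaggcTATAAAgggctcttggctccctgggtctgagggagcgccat
Motifs were searched on both strands of the full RefSeq promoter windows of 300 bases, of which the part before the gene is printed (250 and 152 bases). TATAAA was found once for Cyp26b1 and not for Crabp1, and in 13.6% of the 32851 RefSeq promoters of that length. The half-sites AGGTCA and AGTTCA of retinoic acid receptor elements were in neither window, and they were found in 16.3% and 14.0% of all promoters. RefSeq promoter sequences matched 4 of the 7 genes, Aldh1a1 and Aldh1a2 being the others, and neither half-site is in their windows either. A missing match says only that these letters are not in the window.

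By count, 5 of the 7 genes were mainly found in FBs and 2 in epithelial cells. FBs held 680 of the 710 UMIs of Crabp1 (95.8%), 88.7% of the 1603 of Cyp26b1, 94.3% of the 699 of Aldh1a1, 850 of the 940 of Aldh1a3 and 17942 of the 18407 of Rarres2. Epithelial cells held 93.1% of the 874 UMIs of Crabp2 and 61.0% of the 141 of Aldh1a2, with 31.2% of Aldh1a2 in dendritic cells and macrophages. The clusters were built from these same cells, so differences between clusters are descriptions and carry no test.

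**Figure D1:**
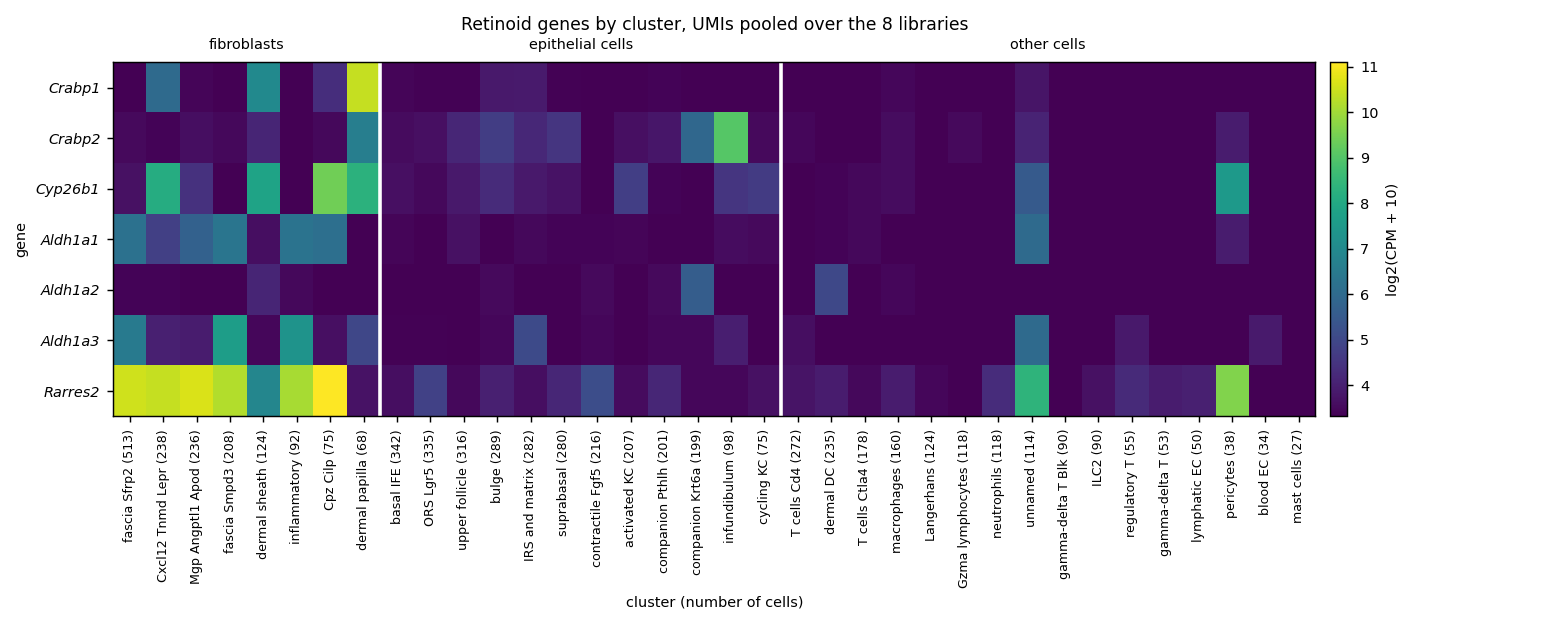
Level of the 7 genes in 36 clusters, as log2(CPM + 10) of UMIs pooled over the 8 libraries. Columns are clusters with their number of cells, in 3 blocks (fibroblasts, epithelial cells, other cells), and rows are genes. Rarres2 is high in 6 of 8 fibroblast columns and near the floor in the papilla, Crabp1 peaks in the papilla, and Crabp2 peaks in the infundibulum.

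Among the binding proteins, Crabp1 was highest in a cluster of 68 dermal papilla-like cells, the FBs at the base of the hair follicle. The cluster carried 7 of 12 papilla markers, among them Corin, Rspo3, Notum and Hhip. It took its FB class from these, as fewer than 3 of the general FB markers passed. The pooled level of Crabp1 there was 1345 CPM. In the 3 libraries with at least 10 such cells it was 1274 CPM (PBMCsec replicate 1), 1011 CPM (PBMCsec replicate 3) and 1141 CPM (vehicle replicate 3). These values lay above every such library of the next cluster in order. Libraries with 1 to 8 papilla-like cells spread from 0 to 3403 CPM. A UMI of Crabp1 was found in 47 of the 68 cells (69.1%, 95% Clopper-Pearson interval 56.7 to 79.8%, counting error only). No UMI was found in 766 T and B lymphocytes, which allows a share of cells with a UMI of up to 0.392% (3 cells of 766), at a median depth of 3350.5 UMIs against 4569.5 in the papilla-like cells.

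The next clusters of Crabp1 were dermal sheath-like cells, the contractile FBs around the follicle (120 CPM), and FBs with Cxcl12, Tnmd and Lepr (54.0 CPM). Their ranges over libraries overlapped, at 0 to 400 CPM and 0 to 120 CPM. Few cells carried these levels. In both clusters together, 6 cells with at least 10 UMIs held 178 of the 225 UMIs, and they came from 2 libraries. In the sheath-like cluster the 5 highest cells held 95.5% of the UMIs, and 108 of 112 UMIs came from PBMCsec replicate 3. The 6 cells, 3 from each cluster, had 836 CPM of 12 papilla markers. The other cells of these clusters had 393 CPM and the papilla-like cluster 5178 CPM. The clusters differed in these markers. Cells with a UMI of Crabp1 had 1164 CPM and those without 828 CPM in the sheath-like cluster. In the Cxcl12, Tnmd and Lepr FBs these were 132 and 206 CPM. The 6 cells thus carried the gene without the papilla level of its markers. Outside FBs, Crabp1 reached at most 4.75 CPM, in inner root sheath- and matrix-like cells.

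Crabp2 was highest in infundibulum-like cells, the keratinocytes of the follicle opening with Krt79, Defb6 and Cst6, at 521 CPM pooled. The 5 libraries with at least 10 such cells gave 485, 369 and 777 CPM after PBMCsec and 346 and 323 CPM after vehicle. All lay above the highest library of the papilla-like cells (183 CPM), the second in order. A UMI was found in 73 of 98 infundibulum-like cells (74.5%, interval 64.7 to 82.8%) at a median depth of 10752.5 UMIs, and in 0.261% of lymphocytes. Krt6a-positive companion layer-like cells, which line the inner root sheath, followed with 50.9 CPM, and their range of 8.26 to 165 CPM overlapped that of the papilla-like cells. Basal interfollicular keratinocytes and further epithelial clusters lay well below, with at most 16.4 CPM, in bulge-like cells.

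The papilla-like cells thus held both binding proteins. All 16 papilla-like cells with a UMI of Crabp2 also had one of Crabp1, whose positive cells were the deeper ones (median 5167 UMIs against 3517). The pooled Crabp2 level there was 90.7 CPM, from 30 UMIs.

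**Figure D2:**
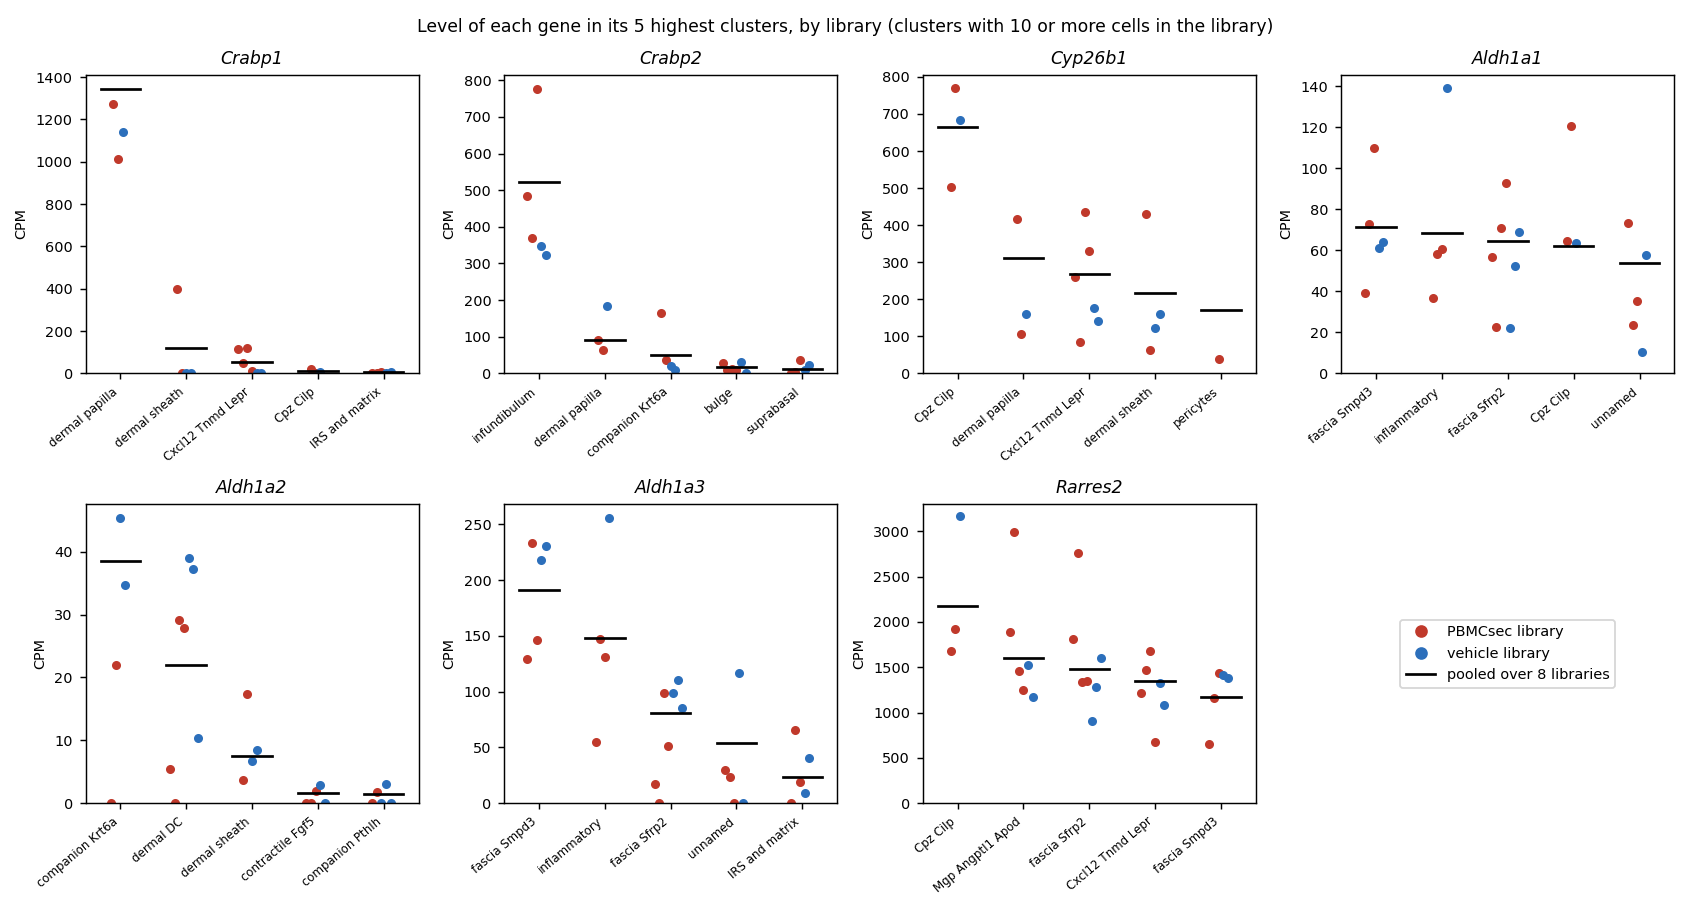
Level in CPM of each gene (panels) in its 5 highest clusters (x axis), 1 point per library with at least 10 cells of the cluster, red for PBMCsec and blue for vehicle. Black lines are the level pooled over the 8 libraries, those with fewer cells included. Crabp1 in the papilla lies at 1011 to 1274 CPM in 3 libraries, while its sheath value comes from 1 library at 400 CPM.

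Of the enzymes that make retinoic acid, Aldh1a3 was highest in 2 fascia-like clusters and in inflammatory-like FBs, all of which carried the fascia markers Pi16, Dpp4 and Cd55. It reached 191 CPM in the fascia-like cluster with Smpd3, 148 CPM in the inflammatory-like FBs (Ptx3, Ccl2, Il6) and 81.1 CPM in the fascia-like cluster with Sfrp2. Over libraries these were 191 ± 49.6 (SD, n = 5), 147 ± 82.5 (n = 4) and 66.0 ± 43.6 CPM (n = 7). The ranges of the first and second overlapped, and so did those of the second and the third. Aldh1a3 was found in 66.8% of the Smpd3 cluster (interval 60.0 to 73.2%). The highest epithelial cluster was the inner root sheath- and matrix-like one, at 23.7 CPM, of which 5 cells held 63.6% of the UMIs.

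Aldh1a1 was spread more evenly over the FBs. It reached 71.1 CPM in the fascia-like cluster with Smpd3, 68.5 CPM in the inflammatory-like FBs, 64.6 CPM in the fascia-like cluster with Sfrp2, 62.1 CPM in FBs with Cpz and Cilp and 43.5 CPM in FBs with Mgp and Angptl1. Neighbours in this order did not differ beyond the spread of their libraries. The highest cluster also changed when 1 library was left out. It was the inflammatory-like FBs without PBMCsec replicate 3 or 4. Without vehicle replicate 3 it was a cluster with Abca8a and Mitf that was given no cell type. It was low in the Cxcl12, Tnmd and Lepr FBs (17.7 CPM), and none of 68 papilla-like cells had a UMI of it, where a count of 3 would be 9.07 CPM. Of FBs with Aldh1a1, 42.6% also had Aldh1a3, against 20.02% of those without it (median depths 9597 and 8310 UMIs).

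Aldh1a2 was rare, with 141 UMIs in all kept cells. It was found in Krt6a-positive companion layer-like cells (38.5 CPM, 22.6% of 199 cells) and in dermal dendritic cell-like cells (22.03 CPM, 11.1% of 235 cells). Over libraries these spread from 0 to 45.3 and from 0 to 39.01 CPM, and the ranges overlapped. In FBs, 11 UMIs were counted, 7 of them in sheath-like cells.

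Cyp26b1 was highest in the FBs with Cpz, Cilp and C1qtnf3, at 665 CPM pooled. The libraries with at least 10 such cells gave 503 and 770 CPM after PBMCsec and 684 CPM after vehicle. It was found in 62 of these 75 cells (82.7%, interval 72.2 to 90.4%). The papilla-like cells (311 CPM), the Cxcl12, Tnmd and Lepr FBs (269 CPM) and the sheath-like cells (218 CPM) followed, with overlapping ranges over libraries. A UMI was found in 35.3%, 36.1% and 40.3% of their cells, against 0.131% of lymphocytes. Smooth muscle- and pericyte-like cells had 171 CPM, from 34 UMIs in 38 cells. In epithelial cells the gene reached at most 17.2 CPM, in activated keratinocyte-like cells.

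Cyp26b1 and Aldh1a3 took different FBs. Of 416 FBs with Aldh1a3 and 244 with Cyp26b1, 6 had both. That is 1.44% of the first and 2.46% of the second. In the Smpd3 and inflammatory-like clusters, 77.9% and 73.9% of cells had a UMI of any Aldh1a gene and none of their 208 and 92 cells had one of Cyp26b1, where a count of 3 would be 1.72 and 3.803 CPM. In the Cpz and Cilp FBs, by contrast, 24 of 75 cells held Cyp26b1 together with an Aldh1a gene, which was Aldh1a1 in 23 of them.

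The split was looked at in each library, with clusters joined into a pair of sets after their values were seen. The first set held both fascia-like clusters and the inflammatory-like FBs, and the second the Cpz and Cilp, Cxcl12, Tnmd and Lepr, sheath- and papilla-like FBs. The Mgp and Angptl1 FBs (236 cells) were left out of both. Of these, 31.8% had a UMI of an Aldh1a gene and 5.93% one of Cyp26b1. Aldh1a3 was higher in the first set in 8 of 8 libraries, at 92.2 ± 53.3 CPM (SD, n = 8) against 10.98 ± 14.8. Cyp26b1 was higher in the second set in 8 of 8 libraries, at 303 ± 158 CPM against 1.49 ± 2.67. Crabp1 was listed at 0 in the first set in all 8 libraries and lay at 42.5 to 1907 CPM in the second. Aldh1a1 was higher in the first set in 7 of 8 libraries, at 60.6 ± 19.1 against 18.4 ± 18.4 CPM. The sets held as few as 12 and 6 cells in a library, and some comparisons rest on very few UMIs. In vehicle replicate 1, the second set (6 cells) had Cyp26b1 at 22.4 CPM, below its Aldh1a3 at 44.9 CPM. In PBMCsec replicate 2, Aldh1a3 was at 3.74 CPM in the first set and 0 CPM in the second.

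**Figure D3:**
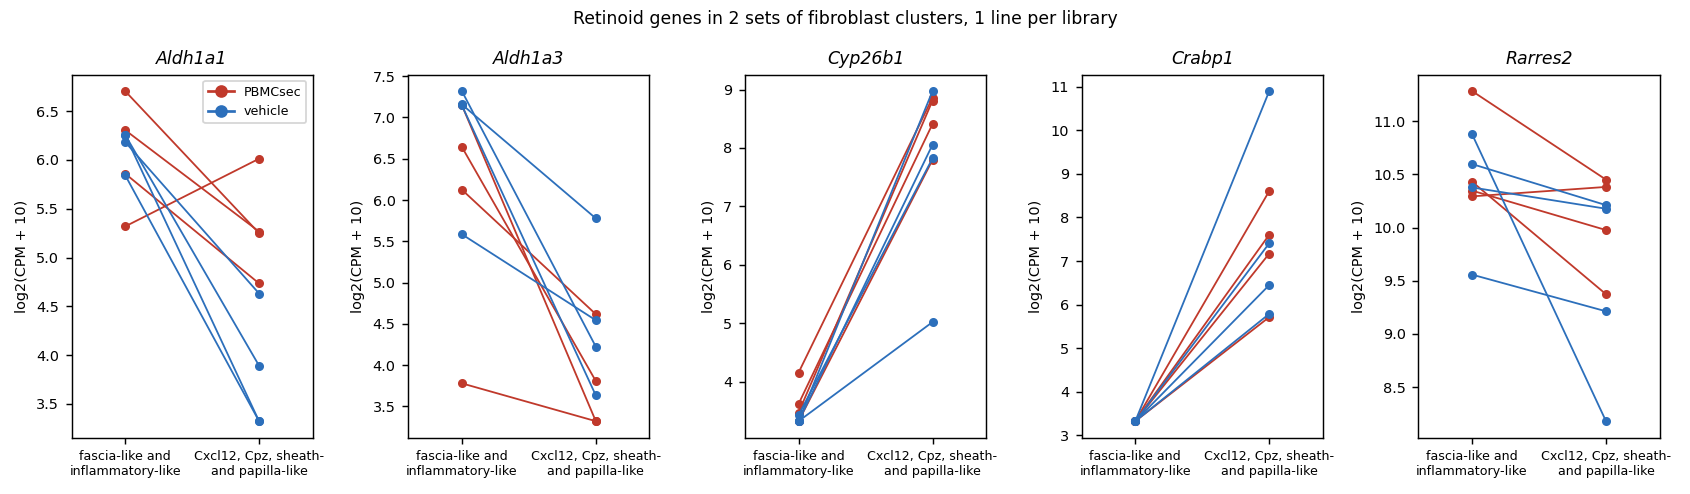
Level of 5 genes as log2(CPM + 10) in 2 sets of fibroblast clusters, with 1 line per library (red PBMCsec, blue vehicle). The sets were joined after the values of these same libraries were seen. Aldh1a3 falls and Cyp26b1 rises from left to right in 8 of 8 libraries, and Crabp1 is at 0 CPM on the left in all of them.

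Rarres2 was the most widespread of the genes, with 18407 UMIs. It was found in 92.9% to 98.9% of the cells of 6 FB clusters, at 2174 CPM in the Cpz and Cilp FBs, 1605 CPM in the Mgp and Angptl1 FBs, 1476 and 1171 CPM in the fascia-like clusters, 1351 CPM in the Cxcl12, Tnmd and Lepr FBs and 1079 CPM in the inflammatory-like FBs. Pericyte-like cells had 778 CPM. The follicle-associated FBs differed from this, with 107 CPM in sheath-like cells and 1 UMI in the 68 papilla-like cells. Rarres2 was found in 31 of the 81 FBs with Crabp1 (38.3%) and in 90.4% of the other FBs, whose median depths were 6061 and 8886 UMIs. Of the 81, 47 were papilla-like cells, and 1 of these had Rarres2. In the Cxcl12, Tnmd and Lepr FBs, Rarres2 was found in 94.7% of 19 cells with Crabp1 and 92.7% of those without. In sheath-like cells these shares were 62.5% (of 8 cells) and 30.2%, and in the Cpz and Cilp FBs 100% (of 5 cells) and 98.6%. The papilla-like cells hence held Crabp1, Crabp2 and Cyp26b1 and next to no Rarres2 or Aldh1a1.

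Over the 36 clusters, Crabp1 and Cyp26b1 correlated with r = 0.70 (log2 scale), Aldh1a1 and Aldh1a3 with 0.77, and Aldh1a1 and Rarres2 with 0.90. Cyp26b1 and Aldh1a3 gave 0.03. Clusters share libraries and differ in depth, so these are descriptions. Among 9099 genes, those most like Crabp1 were Frem1 (r = 0.97), Pappa2 (0.96) and Alx4 (0.96). Those most like Crabp2 were Trex2 (0.85), Klk7 (0.84) and Cst6 (0.83), and Pth1r (0.89) and Egflam (0.89) were among those most like Cyp26b1. Osr2 (0.97), Nova1 (0.97) and Sema3b (0.96) were most like Aldh1a1, Rnase12 (0.77), Wfdc18 (0.60) and Btbd1 (0.59) most like Aldh1a2. D630033O11Rik (0.95), Smpd3 (0.92) and Mrgprg (0.92) were most like Aldh1a3, and Olfml2b (0.97), Ccl11 (0.96) and Medag (0.96) most like Rarres2. By Spearman correlation, 1 of the 21 most similar genes stayed among the 10 most similar, and the cause was not tested.

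Of a list of 57 other genes of the pathway, 32 reached 50 CPM in a cluster. Among the retinol binding and storage genes, Rbp2, a cellular retinol-binding protein, was highest in the infundibulum-like cells (168 ± 88.5 CPM over libraries, n = 5), where the retinol dehydrogenase Sdr16c6 (269.8 ± 52.8) also peaked. These are the cells with the highest Crabp2. Lrat, which esterifies retinol for storage, was highest in the Krt6a-positive companion layer-like cells (158 ± 23.6, n = 4), the cluster with the highest Aldh1a2. Endothelial-like cells came close for Lrat, at 144 CPM pooled against 164 CPM. Fabp5, which can carry retinoic acid to another class of receptors, peaked in the companion layer-like cells too (5308 ± 2712).

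Among the retinol dehydrogenases and reductases, Adh5 was broad (62.2 CPM in FBs and 75.2 CPM in epithelial cells), and so was Dhrs4 (28.4 and 52.2 CPM). Rdh12 and Dhrs7 were highest in neutrophil-like cells (231 and 197 CPM). Rdh10, which makes retinaldehyde, was highest in the sheath-like cells (78.9 ± 54.7 CPM, n = 4). Dhrs3, which turns retinaldehyde back to retinol, was highest in the Mgp and Angptl1 FBs (158 ± 60.2, n = 6). Pooled, Dhrs3 was at 163 CPM there and nearly as high in macrophage-like (150 CPM) and sheath-like cells (138 CPM). Dhrs9 was highest in outer root sheath-like cells (260 ± 76.8, n = 5), and Adh7 and Aldh3a1 in upper follicle-like cells (243 ± 85.9 and 308 ± 87.3, n = 6). Aldh3a1 was among the markers that gave the upper follicle-like cluster its name, so its peak there is no separate finding. Adh7 and Aldh3a1 also reached 120 and 163 CPM in the Cpz and Cilp FBs. Adh1 (75.3 ± 25.4, n = 3) and the secreted retinol carrier Rbp4 (72.0 ± 21.7) were highest in the Cpz and Cilp FBs, the cluster with the highest Cyp26b1.

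Of the receptors, Rarg was found at 79.3 CPM in FBs and 123 CPM in epithelial cells, and Rara was highest in Langerhans cell-like cells (176 ± 21.9, n = 5). Pooled, Rara was at 181 CPM there and nearly as high, at 176 and 174 CPM, in the gamma-delta T cell-like clusters. Of 8 known targets of retinoic acid that reached 50 CPM, 2 were highest in the papilla-like cells, Rarres1 (188 ± 38.7, n = 3) and Meis1 (103 ± 47.1). By pooled level the others peaked outside FBs and epithelial cells. Hic1, Nr2f1 and Nr2f2 were highest in the 38 pericyte-like cells, from 21, 14 and 183 UMIs. The only library with at least 10 of these cells gave 19.7 CPM for Nr2f1, below 35.9 CPM pooled in the Abca8a and Mitf cluster. Tgm2 and Meis2 were highest in lymphatic endothelial-like cells and Nrip1 in group 2 innate lymphoid-like cells. In the papilla-like cells Tgm2 was at 0, Nr2f1 at 3.02, Hic1 at 6.05 and Nr2f2 at 24.2 CPM. Meis2 and Nrip1 were higher there, at 81.6 and 124 CPM. The chemerin receptor Cmklr1 was highest in sheath-like cells (58.9 ± 25.3, n = 4) and macrophage-like cells (56.7 CPM pooled), and Ccrl2, which binds chemerin without signalling, in neutrophil-like cells (4423 ± 3019, n = 4).

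**Figure D4:**
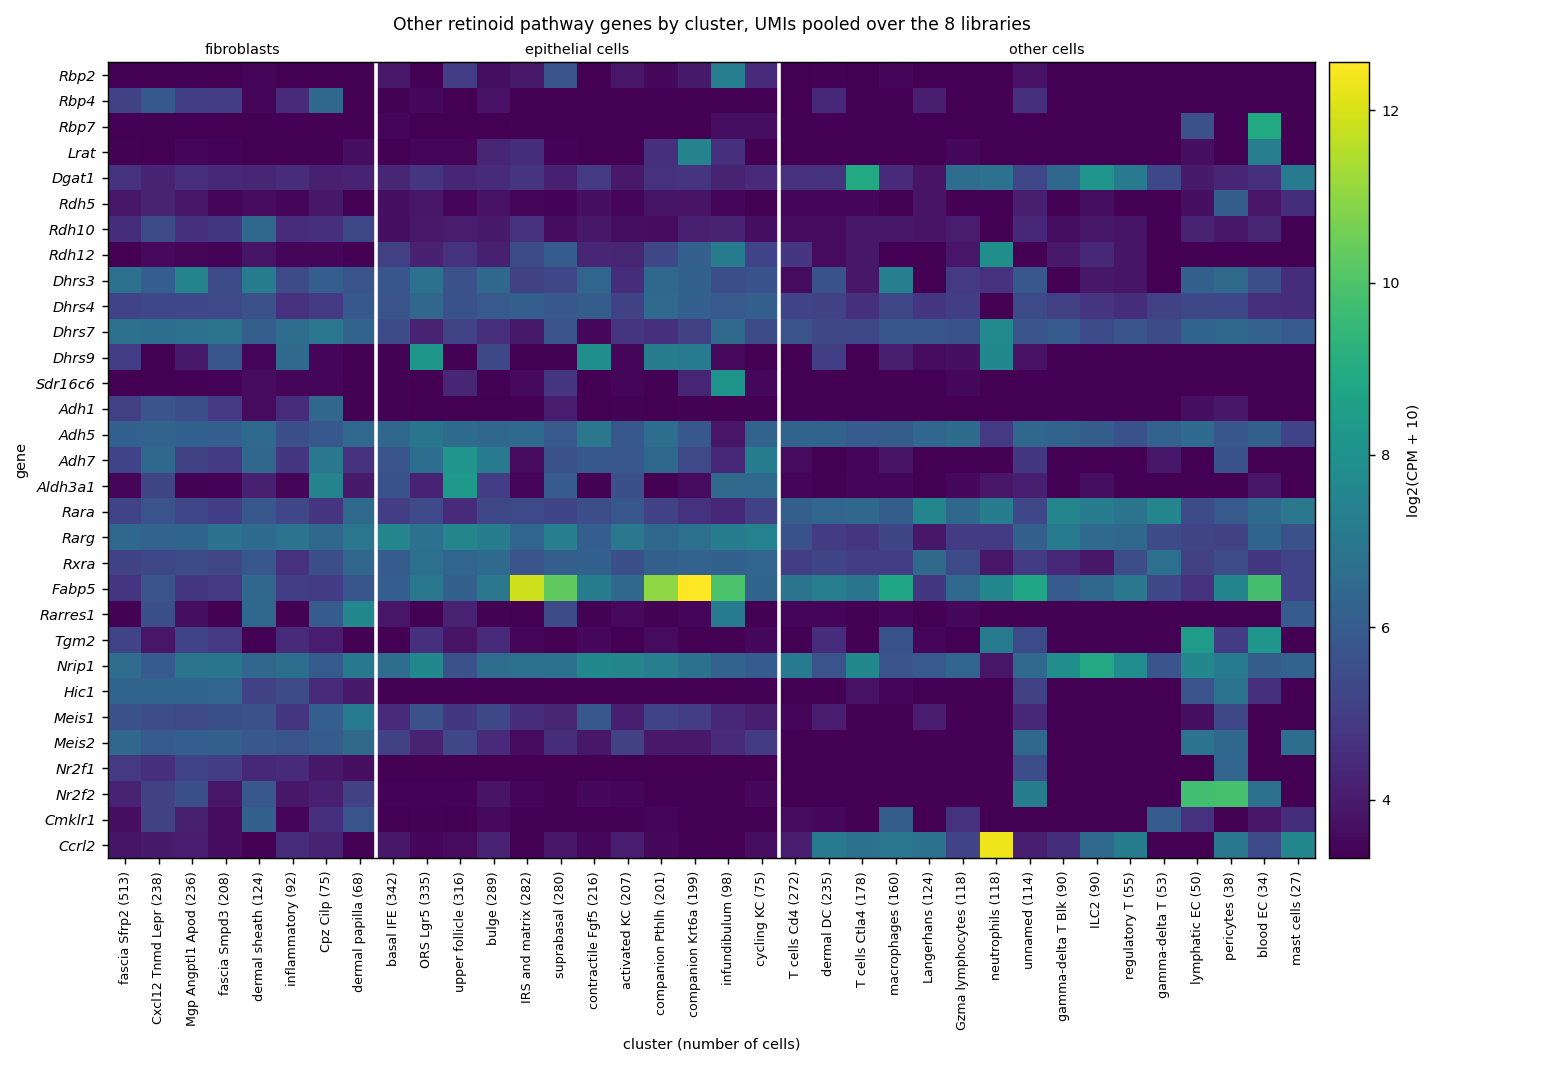
Level of pathway genes that reached 50 CPM in a cluster, as log2(CPM + 10) of UMIs pooled over the 8 libraries, in the same order of clusters as the plot of the 7 genes. Rbp2 and Sdr16c6 peak in the infundibulum column, and Lrat and Fabp5 in the Krt6a companion column.

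The study's question was how skin treated with PBMCsec differs from controls. In FBs, no difference between PBMCsec and vehicle was called for any of the 5 genes with enough UMIs to test. Of all 9570 genes tested with edgeR's quasi-likelihood test, 0 (0%) passed an adjusted p of 0.05, and none of the 5 was among the 186 (1.94%) with an unadjusted p under 0.05. DESeq2 also called 0. Crabp2 (53 UMIs) and Aldh1a2 (11 UMIs) were too low to test in FBs. With 4 libraries a side, simulated 4-fold changes in FBs were called in 89 of 100 genes and 2-fold changes in 25 of 100, so smaller differences could be missed. The simulation does not measure the limit for the 5 genes themselves, and larger differences in them could be missed too.

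Rarres2 was measured in FBs at 1435, 2431, 1318 and 1200 CPM after PBMCsec and at 601, 1279, 1225 and 1368 CPM after vehicle. The groups overlapped, with PBMCsec replicate 2 above and vehicle replicate 1 below the rest. The log2 difference was 0.51 ± 0.30 (SE; edgeR p = 0.114, adjusted p = 0.9998; exact permutation p = 0.229). It was 1.06 in the libraries numbered 1 and 2 and -0.036 in those numbered 3 and 4, and 0.24 without PBMCsec replicate 2.

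Cyp26b1 was measured in FBs at 132, 73.5, 125 and 112 CPM after PBMCsec and at 3.67, 194, 83.3 and 75.9 CPM after vehicle. The vehicle libraries spread on both sides of all PBMCsec libraries, and the log2 difference was 0.40 ± 0.52 (edgeR adjusted p = 0.9998). Vehicle replicate 1, the lowest, held no cell of the Cpz and Cilp or sheath-like clusters. The difference was 0.060 without vehicle replicate 1 and 0.85 without vehicle replicate 2. Aldh1a3 was at 30.5, 1.67, 81.1 and 54.3 CPM after PBMCsec and at 84.4, 26.2, 69.7 and 69.7 CPM after vehicle, a log2 difference of -0.53 ± 0.55 (adjusted p = 0.9998). Aldh1a1 was at 32.8, 45.1, 56.1 and 66.8 against 36.7, 26.2, 41.7 and 51.1 CPM, a log2 difference of 0.28 ± 0.27 (adjusted p = 0.9998). The groups overlapped for all 3. With 1 library left out, the difference of Aldh1a3 ran from -1.05 (without PBMCsec replicate 3) to -0.22 (without PBMCsec replicate 2). That of Aldh1a1 ran from 0.12 (without PBMCsec replicate 4) to 0.45 (without PBMCsec replicate 1, and likewise without vehicle replicate 4).

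Of the Crabp1 UMIs in FBs, 445 were in papilla-like cells and 225 in the sheath-like and the Cxcl12, Tnmd and Lepr clusters. In FBs, Crabp1 was at 105, 13.4, 52.0 and 44.3 CPM after PBMCsec and at 312, 62.9, 17.3 and 22.1 CPM after vehicle. The highest library, vehicle replicate 1, held 31 FBs, of which 3 papilla-like cells carried all 85 of its UMIs. The log2 difference was -0.66 ± 0.83 (edgeR adjusted p = 0.9998). It turned to 1.16 without vehicle replicate 1, and was -1.61 in the libraries numbered 1 and 2 and 1.33 in those numbered 3 and 4 (edgeR adjusted p = 0.609 for the latter). With the library number as a block it was -0.019. Papilla- and sheath-like cells made up 10.5 ± 6.73% of FBs after PBMCsec and 15.4 ± 7.58% after vehicle (n = 4 each, exact permutation p = 0.314, two-sided). This difference of -4.86 percentage points was -1.35 without vehicle replicate 2 and -1.84 without PBMCsec replicate 2. Without the papilla-like cluster, a choice made after seeing the data, Crabp1 lay at 17.95 ± 16.8 against 4.31 ± 8.16 CPM without TMM scaling (exact permutation p = 0.2).

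**Figure D5:**
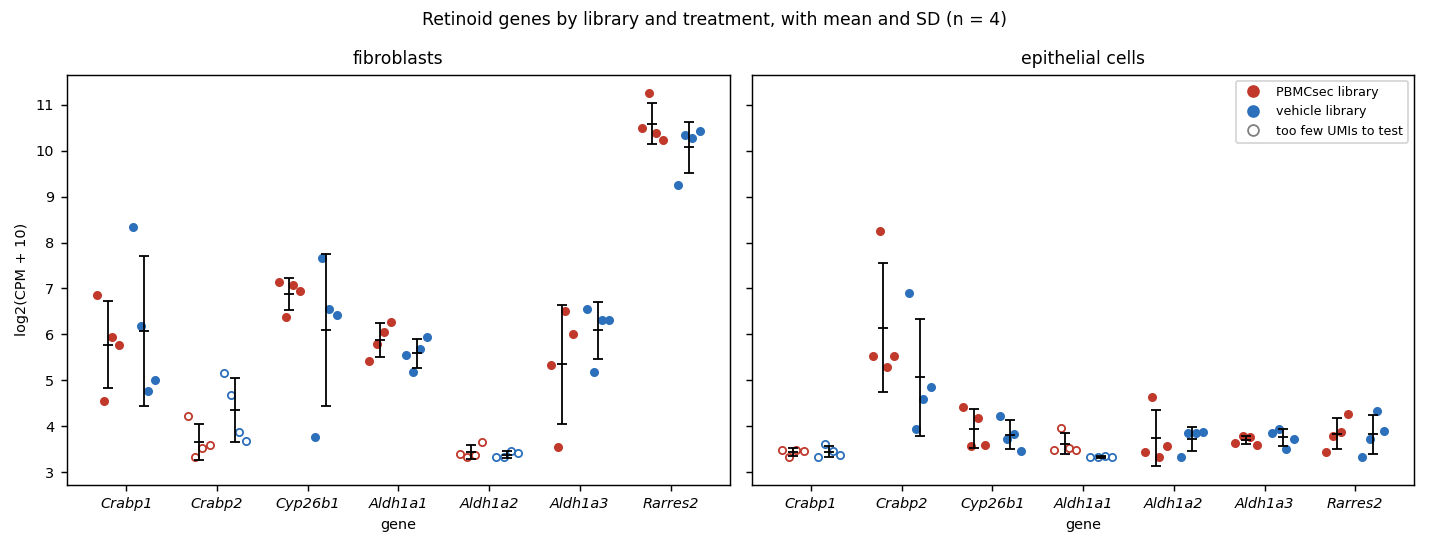
Level of the 7 genes as log2(CPM + 10) in fibroblasts (left) and epithelial cells (right), 1 point per library, red for PBMCsec and blue for vehicle, with mean and SD of 4 libraries. Open points mark genes with too few UMIs to test. The groups overlap for all 7 genes in fibroblasts, and in epithelial cells for all but Aldh1a1.

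In epithelial cells, 5 of the 7 genes were tested and no difference was called for any of the 5. Simulated 4-fold changes there were called in 91% of genes and 2-fold changes in 35%, which again does not measure the limit for the 7 genes. Of 10831 genes tested, 0 (0%) passed the adjusted p, 166 (1.53%) had an unadjusted p under 0.05, none of them among the 5, and DESeq2 called 1. Crabp2 was at 36.2, 296, 29.2 and 35.8 CPM after PBMCsec and at 109, 5.44, 14.0 and 18.7 CPM after vehicle. One library of each group stood far above its others. In PBMCsec replicate 2, 117 of the 159 epithelial UMIs came from 2 infundibulum-like cells. The log2 difference was 1.94 ± 0.97 (edgeR adjusted p = 0.9998, exact permutation p = 0.343). It was 0.56 without PBMCsec replicate 2 and 2.66 without vehicle replicate 1.

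Cyp26b1 (log2 difference 1.05 ± 0.65), Aldh1a2 (-1.19 ± 1.001), Aldh1a3 (0.051 ± 0.49) and Rarres2 (-0.35 ± 0.60) were low in epithelial cells, with 71 to 192 UMIs each, and their groups overlapped (edgeR adjusted p = 0.9998 for each). The difference of Aldh1a2 ran from -2.30 (without PBMCsec replicate 2) to -0.37 (without PBMCsec replicate 3), and that of Cyp26b1 from 0.56 (without vehicle replicate 4) to 1.55 (without vehicle replicate 3). Aldh1a1 was not tested there, having 22 UMIs in 2840 cells. It was at 1.23, 5.59, 1.58 and 1.18 CPM after PBMCsec, and at 0, 0, 0.213 and 0 CPM after vehicle. All PBMCsec libraries thus lay above all vehicle libraries. Among the latter, only replicate 3 had cells with a UMI (0.206% of its epithelial cells). Of the genes tested in epithelial cells, 1.29% did not overlap between groups. A UMI was found in 1.96 ± 1.88% against 0.0514 ± 0.103% of epithelial cells (exact permutation p = 0.0286, the smallest the design allows, unadjusted). After thinning each cell to a depth of 1000 UMIs, which leaves out 121 shallower cells, these shares fell to 0.0856% and 0% (exact permutation p = 1). Only PBMCsec replicate 3 still had cells with a UMI then (0.342%). Too few UMIs were thus left for the thinned test to show whether the difference depends on depth. FB markers in epithelial cells lay at 89.7 to 250.1 against 32.5 to 314 CPM, and their part in this was not tested.

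The difference between the treatment effect in epithelial cells and that in FBs was tested for 6 of the genes. Of 11136 genes, 0 (0%) passed the adjusted p and 270 (2.42%) had an unadjusted p under 0.05. Aldh1a1 (log2 difference of the effects, epithelial cells minus FBs, 2.91 ± 0.78) and Crabp2 (2.21 ± 0.92) were among the latter, with an edgeR adjusted p of 1 for both. The Aldh1a1 value rests on 22 epithelial UMIs and moved from 2.39 to 4.61 with 1 library left out, the highest being that without vehicle replicate 3, and that of Crabp2 from 1.52 (without PBMCsec replicate 2) to 3.33 (without PBMCsec replicate 1).

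Dendritic cells and macrophages held too few UMIs of all 7 genes to test. Aldh1a2, with 44 UMIs, was at 2.87, 0, 17.9 and 12.7 CPM after PBMCsec and at 19.6, 9.11, 18.8 and 5.92 CPM after vehicle (exact permutation p = 0.314). The groups overlapped for each of the 7 genes, and 2.64% of the genes tested did not overlap. Of 5598 genes tested in these cells, 0 (0%) passed and 263 (4.70%) had an unadjusted p under 0.05. DESeq2 called 7, and the fit with the library number as a block called 4.

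Summed over all kept cells, Rarres2 was at 441, 665, 507 and 283 CPM after PBMCsec and at 139, 144, 289 and 300.4 CPM after vehicle. Vehicle replicates 3 and 4 reached into the PBMCsec range. The log2 difference was 1.11 ± 0.35 (edgeR p = 0.0102, adjusted p = 1; exact permutation p = 0.0857). Aldh1a1 was at 11.2, 15.8, 22.2 and 16.0 against 8.50, 2.91, 9.65 and 11.4 CPM, a log2 difference of 0.95 ± 0.37 (edgeR p = 0.0290, adjusted p = 1; exact permutation p = 0.0571). Over all kept cells the 4 same-numbered pairs of libraries deviated together (r across genes 0.33 to 0.73), and so did some pairs with different numbers (up to 0.56). Aldh1a1 was higher after PBMCsec in 4 of 4 such pairs, and its difference was 1.02 with the pairing as a block (edgeR adjusted p = 1). Rarres2 was higher in 3 of 4 pairs, at 1.14 with the block (edgeR adjusted p = 1). The groups of each of the 7 genes overlapped, and those of 1.79% of all genes did not. Of all 13182 genes, 0 (0%) passed the adjusted p, 335 (2.54%) had an unadjusted p under 0.05, and DESeq2 called 8, none of them among the 7. In such sums, more cells of a type and more RNA per cell cannot be told apart. FBs, which hold nearly all UMIs of both genes, gave 29.8 ± 6.51% of the UMIs after PBMCsec and 19.5 ± 5.50% after vehicle (exact permutation p = 0.0571). Their part in the difference was not tested. Within FBs the differences of both were smaller, at 0.51 and 0.28.

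Over all kept cells, Crabp2 (1.21 ± 0.62), Cyp26b1 (1.02 ± 0.50), Crabp1 (-0.23 ± 0.96), Aldh1a2 (-0.87 ± 0.45) and Aldh1a3 (-0.0029 ± 0.63) did not pass either (edgeR adjusted p = 1 for each). Crabp2 was 0.47 without PBMCsec replicate 2, and Aldh1a2 was -0.57 without PBMCsec replicate 1.

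Within the cluster where each gene was highest, 1 to 3 libraries a group had at least 10 cells, and exact permutation tests could not go below p = 0.1. The differences of log2(CPM + 10) were -0.0078 for Crabp1, 0.62 for Crabp2, -0.13 for Cyp26b1, 0.12 for Aldh1a1, -1.47 for Aldh1a2, -0.42 for Aldh1a3 and -0.82 for Rarres2. Those of Crabp1, Cyp26b1 and Rarres2 rest on 1 vehicle library against 2 of PBMCsec, for Rarres2 3175 CPM against 1798 ± 172 CPM.

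In the main fits, none of the other genes of the pathway passed the adjusted p either. Without the filter on low counts, Fabp5 and Tgm2 did so in dendritic cells and macrophages. In FBs, 32 of the 57 were tested, 16 with a higher and 16 with a lower mean after PBMCsec, with a median log2 difference of 0.0099 beside -0.0027 over all genes. In epithelial cells 29 were tested, 16 higher and 13 lower, with a median of 0.024 beside 0.0080. In dendritic cells and macrophages 9 were tested, 6 higher and 3 lower, with a median of 0.30 beside -0.021. Of these, 3 (33.3%) had an unadjusted p under 0.05, beside 4.70% of all genes, and 2 (22.2%) did not overlap, beside 2.64%. They were the fatty acid-binding protein Fabp5 (279 ± 219.5 against 96.9 ± 35.9 CPM, log2 difference 1.51 ± 0.47, edgeR adjusted p = 0.823), Dhrs7 (46.3 ± 10.98 against 26.3 ± 7.57 CPM, 0.77 ± 0.32) and the receptor Rara (86.6 ± 17.6 against 128.8 ± 24.1 CPM, -0.54 ± 0.24). The groups of Fabp5 overlapped. Over all kept cells 40 were tested, 23 higher and 17 lower, with a median of 0.15 beside -0.018, and 3 (7.5%) had an unadjusted p under 0.05, beside 2.54% of all genes. Lowest in unadjusted p in FBs was Rdh10, at 17.7 ± 3.06 CPM after PBMCsec and 30.96 ± 8.97 CPM after vehicle (log2 difference -0.82 ± 0.26, edgeR adjusted p = 0.9998, exact permutation p = 0.0286). Its groups did not overlap, nor did those of 1.55% of all genes tested in FBs. Rdh10 was highest in sheath-like cells, and without the papilla- and sheath-like clusters its log2 difference was -0.58. At a mitochondrial limit of 10% it was -0.32. In epithelial cells 3 of 29 (10.3%) had an unadjusted p under 0.05, beside 1.53% of all genes, and 2 of 29 (6.90%) did not overlap, beside 1.29%. The 3 were Lrat (log2 difference -1.52 ± 0.46, exact permutation p = 0.171), Rbp2 (0.92 ± 0.35, exact permutation p = 0.0571) and Adh7 (0.44 ± 0.18, exact permutation p = 0.0286), each with an edgeR adjusted p of 0.9998. Lrat is highest in the Krt6a-positive companion layer-like cells, which made up 1.95 ± 1.31% of kept cells after PBMCsec and 3.57 ± 2.58% after vehicle (exact permutation p = 0.257), and their part in its difference was not tested.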

How the data were processed

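Raw UMI counts per gene and barcode, without normalization, are the values the authors deposited for each of the 8 libraries. Per the submitters' processing notes they were made with Cell Ranger 3.0.2 on mm10. After the study's cell filter and removal of 3 noise genes (Gm42418, Gm17056, Gm26917), integration and clustering used Seurat 5.3.0 (R 4.3.3, 2000 variable features, 30 dimensions, resolution 1). Clusters were named where at least 3 markers were found in at least 25% of cells at 2-fold or more. This scoring was set with the files at hand, and 4 clusters took their class from subtype markers. Scrublet in scanpy 1.11.5 marked 17 cells (0.276%), a share too low to rely on, so its calls were not used and doublets may remain. Why it marked so few was not tested. Removing the 5% of cells with the highest scores is an alternative.

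Counts were summed per library over FBs, epithelial cells, dendritic cells and macrophages, or all kept cells, and compared by the quasi-likelihood test of edgeR 4.0.16 after filterByExpr and TMM scaling. P-values were adjusted by Benjamini-Hochberg over all tested genes. CPM in the comparisons by treatment are scaled by TMM factors. A treatment difference between epithelial cells and FBs was tested as an interaction with a term per library. DESeq2 1.42.0 and the alternatives of the closing section were also run. Exact permutation tests, two-sided, used log2(CPM + 10) or shares, over 70 labellings of 4 against 4. The 7 genes, the pathway list and the markers were chosen with earlier results of these data known. Named genes were the 7, pathway genes reaching 50 CPM or called, and the 3 genes most similar to each of the 7 by Pearson correlation over clusters. Of these, 2 are not reported here. Pathway genes named by treatment had the lowest unadjusted p and were chosen after their values were seen.

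PBMCsec and vehicle libraries share numbers 1 to 4. Same-numbered libraries deviated together in all 4 pairs over dendritic cells and macrophages (correlations 0.14 to 0.37) and over all kept cells (0.33 to 0.73), and not in all pairs over FBs (-0.00 to 0.38) and epithelial cells (-0.12 to 0.65). Over all kept cells, libraries with different numbers also deviated together, at 0.56 for PBMCsec 4 with vehicle 3 and 0.53 for PBMCsec 2 with vehicle 1. The pairing is at most a hint from the data, since no label says what a number marks. Library totals were 14753926 to 37880651 UMIs over all barcodes. The interval around a share covers counting error only. The edgeR step was tested on simulated data.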

Additional observations from a re-analysis of the deposited data

Results flagged for a closer look

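In a test of whether the highest or lowest of 4 libraries stood far from the other 3, 8 of 34 groups of the 7 genes were marked. Its limit marks about 1 in 20 by chance for normally distributed values, which CPM from few UMIs need not be. The marked groups shared libraries and genes, and those over all kept cells include the UMIs of FBs and epithelial cells. The count of marked groups is therefore not compared with chance. In FBs, Crabp1 in vehicle replicate 1 (312 CPM) stood above the other vehicle libraries (17.3 to 62.9 CPM). It did so over all kept cells too, at 72.3 CPM against 4.68 to 8.15 CPM. Cyp26b1 over all kept cells was lowest in the same library, at 2.55 CPM against 20.7 to 23.3 CPM, and Aldh1a2 in its epithelial cells was at 0 CPM against 4.35 to 4.68 CPM. Crabp2 in its epithelial cells was at 109 CPM against 5.44 to 18.7 CPM. That library held 31 FBs and 23 epithelial cells, the fewest epithelial cells of all. In PBMCsec replicate 2, Crabp2 stood above the other PBMCsec libraries in epithelial cells (296 CPM against 29.2 to 36.2) and over all kept cells (72.0 against 14.4 to 23.4), and so did Aldh1a2 in epithelial cells (14.9 against 0 to 1.89). Both libraries were among the smallest, with 151 and 313 kept cells. The part of cell number in these values was not tested.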

How the results depend on the processing

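None of the 7 genes passed the adjusted p under any of 380 alternatives for 23 differences, and 353 kept their direction. Among the reversals, Crabp1 in FBs turned to 1.33 and Rarres2 to -0.036 in libraries numbered 3 and 4. Crabp1 over all kept cells turned to 1.71 there and to 0.42 with the replicate block. Aldh1a3, near 0 in the main fits, took -0.089 (DESeq2) and -0.055 (no filter on low counts) in epithelial cells. Over all kept cells it took 0.011 (RLE), 0.040 (no filter), 0.44 (libraries 3 and 4), 0.038 (highest Scrublet scores removed) and 0.062 (every barcode). Aldh1a2 over all kept cells was 0.32 with every barcode, and the Crabp1 interaction 0.33 at a 10% mitochondrial limit. The causes were not tested.

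Leaving out 1 library gave -1.18 to 1.16 (Crabp1, FBs), -1.002 to 0.33 (Rarres2, epithelial cells), -0.72 to 1.62 (Crabp1, all cells), -0.74 to 0.32 (Aldh1a3, all cells), and, for the interaction, -1.20 to 0.13 (Crabp1), -0.22 to 0.75 (Aldh1a3) and -1.26 to 0.083 (Rarres2). Counts of calls went from 0 to 1 by DESeq2 in epithelial cells and to 8 over all kept cells. In dendritic cells and macrophages they went to 7 (DESeq2), 111 (no filter), 4 (replicate block), 7 and 1 (libraries 1 and 2, and 3 and 4), 1 (10% mitochondrial limit) and 2 (Scrublet scores removed), and to 0 to 1 with 1 library left out. Those of the interaction went to 13 without the filter and 0 to 1 with 1 library left out. The replicate block left 0 calls in FBs, epithelial cells, all kept cells and the interaction. Among the 111 calls without the filter in dendritic cells and macrophages were the pathway genes Fabp5 and Tgm2.

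Crabp1 in papilla-like cells was 1560 CPM at the 10% limit and 1177 to 1401 CPM with 1 library left out. With the highest Scrublet scores removed, Aldh1a1 was highest in the cluster with Abca8a and Mitf that was given no cell type. By treatment in the highest cluster, where the smallest p is 0.1 or more, leaving out 1 library gave -0.17 to 0.16 for Crabp1, -0.44 to 0.17 for Cyp26b1 and -0.18 to 0.46 for Aldh1a1, and the 10% limit 0.019 for Cyp26b1. The difference in the share of cells with a UMI, in percentage points, was 0.19 for Crabp1 and 2.13 for Cyp26b1 in FBs. Thinned to 1000 UMIs, these turned to -2.34 and -0.88. In epithelial cells, that of Crabp2 turned from -0.11 to 1.17 on thinning, and that of Aldh1a1 fell from 1.91 to 0.0856. Of the 21 most similar genes, 1 stayed by Spearman correlation and 17 at resolution 2. A prior of 1 CPM changes no level in CPM.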
